A study of Homo sapiens with 6 samples.

Results

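Cells make cholesterol from acetyl-CoA through the mevalonate pathway and take it up from lipoproteins, and both routes are set by the transcription factor SREBP2. The genes described here are 31 of the 23059 in the deposited tables, chosen by their names: 20 enzymes from acetyl-CoA to cholesterol, 5 genes of sterol uptake, transport and storage, and 6 genes of the machinery that controls SREBP2. They were compared between HCC-LM3 cells treated with apigenin, a flavone found in many plants, and the same cells treated with DMSO, the solvent control. HCC-LM3 is an established human hepatocellular carcinoma line with high metastatic capacity. Total RNA was sequenced from 3 samples per group, which the titles name biological replicates, and no genetic change is named for either group. Neither the dose nor the duration of treatment is given in the sources used here. The titles do not say whether these were separate cultures, so the p-values measure the spread between these samples, which may be technical.

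Sterol synthesis runs in stages. The mevalonate steps build a small isoprenoid, the isoprenoid steps join such units into farnesyl diphosphate, and squalene is then made, oxidised and folded into lanosterol, which a series of reductases, demethylases and desaturases turns into cholesterol. SREBP2 is made as a membrane protein of the endoplasmic reticulum. When sterols are plentiful, the INSIG proteins hold SREBP2 and its escort SCAP there. When sterols are scarce, SCAP carries SREBP2 to the Golgi apparatus, where the site-1 and site-2 proteases (MBTPS1 and MBTPS2) release the part that enters the nucleus and switches on the enzymes, its own gene and INSIG1. In the liver, an organ that makes and clears much of the body's cholesterol, a second nuclear factor, LXR, senses oxysterols and switches on export.

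The 250 bases before the RefSeq start (GRCh38.p14) of 4 members are shown because they cover the regulator gene itself, its best known feedback gene, the first called enzyme of the pathway and the gene that fell furthest. They lie at chr22:41832855-41833104 (plus strand), chr7:155297628-155297877 (plus strand), chr5:43313413-43313662 (minus strand) and chr5:111512536-111512785 (minus strand). They are written 5′ to 3′ in the direction of the gene. Capitals mark letters that match, on either strand, TCACNCCAC (a form of the sterol regulatory element), CCAAT (the box bound by NF-Y), GGGCGG (the box bound by Sp1) or CACGTG (an E-box).
SREBF2: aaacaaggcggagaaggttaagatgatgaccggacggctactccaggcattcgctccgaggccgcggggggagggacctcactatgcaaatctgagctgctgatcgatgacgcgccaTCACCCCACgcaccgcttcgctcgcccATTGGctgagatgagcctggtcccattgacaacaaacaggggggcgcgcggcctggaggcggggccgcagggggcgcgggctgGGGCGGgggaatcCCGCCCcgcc
INSIG1: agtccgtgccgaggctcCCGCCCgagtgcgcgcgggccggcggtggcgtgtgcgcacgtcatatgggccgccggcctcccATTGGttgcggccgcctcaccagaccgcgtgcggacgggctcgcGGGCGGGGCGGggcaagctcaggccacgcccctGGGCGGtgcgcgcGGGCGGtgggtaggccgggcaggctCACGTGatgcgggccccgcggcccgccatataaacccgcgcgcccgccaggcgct
HMGCS1: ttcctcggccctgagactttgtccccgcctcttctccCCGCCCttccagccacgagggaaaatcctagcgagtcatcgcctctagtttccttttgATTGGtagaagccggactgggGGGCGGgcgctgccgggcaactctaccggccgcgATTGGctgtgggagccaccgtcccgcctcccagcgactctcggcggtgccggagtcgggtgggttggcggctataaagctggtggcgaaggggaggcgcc
STARD4: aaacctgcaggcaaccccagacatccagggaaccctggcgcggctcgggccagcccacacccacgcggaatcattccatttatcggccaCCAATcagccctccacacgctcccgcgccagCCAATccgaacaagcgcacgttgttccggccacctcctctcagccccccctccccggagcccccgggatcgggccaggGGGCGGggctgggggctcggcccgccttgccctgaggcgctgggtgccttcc

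The SREBF2 window held TCACCCCAC at position -133 from the start and a reversed CCAAT at -106. HMGCS1 and STARD4 each held 2 CCAAT boxes. In INSIG1, the GGGCGG matches at -126 and -121 overlap, and CACGTG stood at -55. Promoters of 28 of the 31 members were matched by symbol. TCACNCCAC was in 1 of these 28 and in 0.875% of all 27305 promoters of that length. Its shorter core CACNCCAC, not marked in capitals by itself, was in 2 of 28 against 4.72%. These were SREBF2 and INSIG1, where it stood reversed at -208. CCAAT was in 18 of 28 against 33.0%, GGGCGG in 23 of 28 against 42.3%, and CACGTG in 3 of 28 against 6.49%. CCAAT was in 3 of the 5 members that fell (HMGCS1, LSS and STARD4) and in 15 of the 23 others with a matched promoter. These matches are letters in a window, and nothing about binding was measured.

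The libraries held 33882145 to 37983636 counts, and all 31 members passed the filter on low counts. Levels below are CPM, read counts scaled for library size with TMM factors, or FPKM where genes are compared with each other, since FPKM also divides by gene length. A gene is called where edgeR's quasi-likelihood test gave a Benjamini-Hochberg adjusted p under 0.05 over the 15173 genes tested. In the apigenin libraries, levels relative to the DMSO mean fell with gene length, with slopes of -0.071, -0.021 and -0.147 log2 units per doubling of length in apigenin 1, 2 and 3, against -0.0047 to 0.0032 in the DMSO libraries. The spread was wider among apigenin libraries, where the chi-square over its degrees of freedom between pairs was 8.81 to 27.5, against 4.35 to 5.15 among DMSO libraries. The hepatocyte lineage markers were all detected, with a summed level of 3705 to 3798 CPM with DMSO and 3251 to 3751 with apigenin. Of these 11 markers ALB and SERPINA1 fell and 9 were not called, against 4.22% of all tested genes called lower. The median log2 fold change was -0.21, with 9 below 0, against 49.2% of tested genes. At an unadjusted p under 0.05, 4 were lower, against 12.6%. With each library's trend on gene length removed, 6 of the 11 were called lower (median -0.24), against 5.46% of tested genes. KRT8 and KRT18 were among the 6, and the part of these markers in the sterol results was not tested. HNF4A stood at 72.2 to 79.0 CPM with DMSO. The leukocyte gene PTPRC reached at most 0.268 CPM, while the macrophage marker CD68 stood at 85.1 CPM or more in every library. The fibroblast gene PDGFRB reached at most 0.149 CPM. The 4 fibroblast markers together summed to 1.33 to 1.82 CPM with DMSO and 1.59 to 2.02 CPM with apigenin. The 3 endothelial markers summed to 49.4 to 53.8 CPM with DMSO and 42.7 to 46.5 CPM with apigenin, nearly all of it PECAM1, and their part in the results was not tested. Because these are bulk samples, fewer cells with a transcript and less of it in each cell cannot be told apart.

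Of the 31 sterol genes, 5 fell with apigenin, none rose and 26 were not called, against 4.22% of all tested genes called lower and 2.76% called higher. DESeq2 called 9 lower, against 7.37% of the genes it tested, and 0 higher. The genes that fell were HMGCS1, IDI1, LSS and CYP51A1, which encode enzymes, and STARD4, which encodes a sterol carrier. The log2 fold change was below 0 for 23 members, against 49.2% of all tested genes, and the median over the 31 was -0.15 against 0.004 over all tested genes. At an unadjusted p under 0.05, 15 members were lower and 1 was higher, against 12.6% and 11.7% of tested genes. In 17 members all 3 apigenin libraries lay below all 3 DMSO libraries, against 15% of tested genes, and in 1, NPC2, they lay above, against 14.4%. Every member had a mean of 5 CPM or more. Among tested genes at that level, 18.1% lay below without overlap and 5.71% were called lower.

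**Figure D1:**
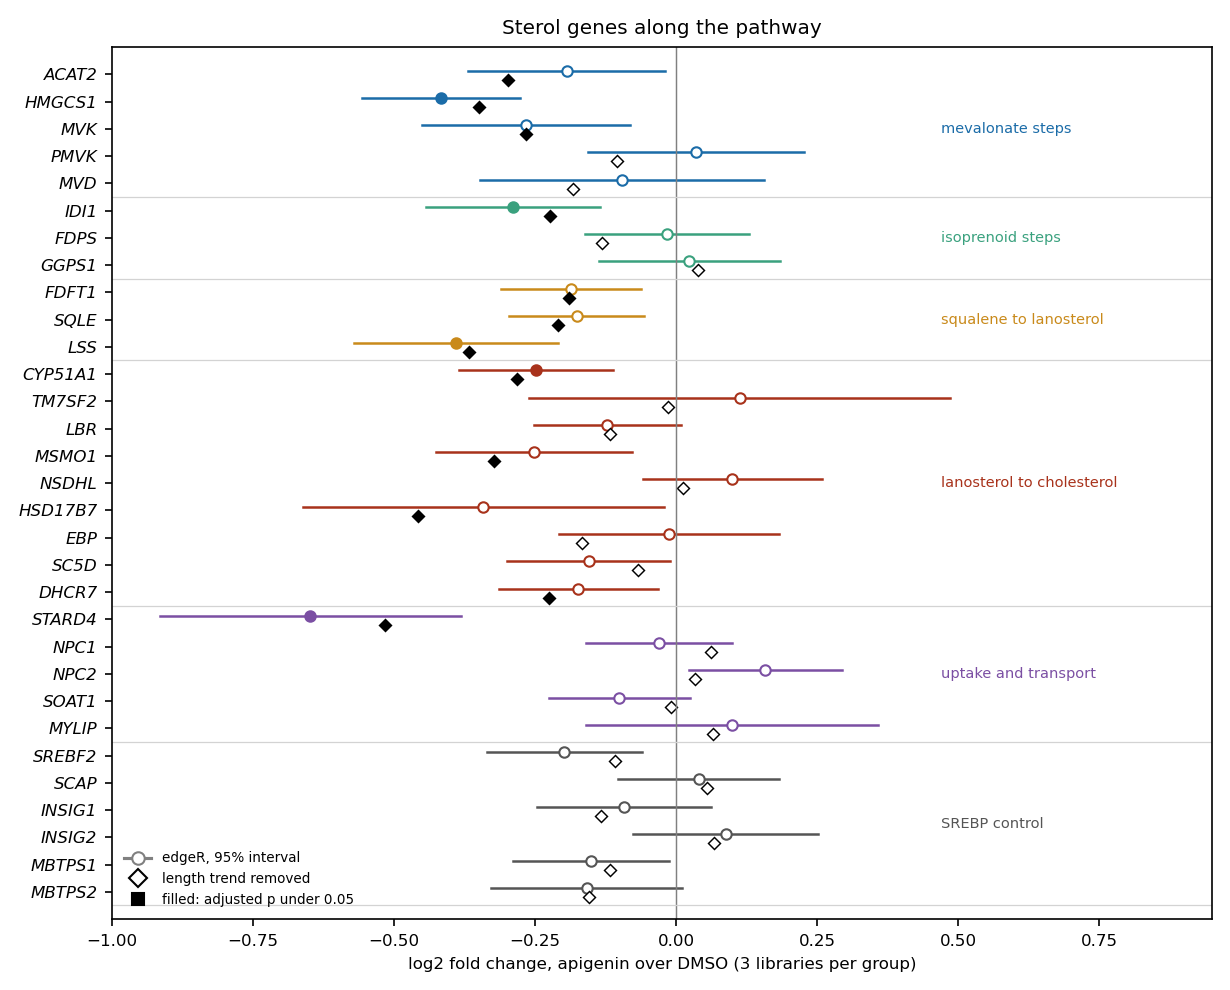
Log2 fold change of each of the 31 genes (horizontal axis, apigenin over DMSO, n = 3 per group) in pathway order from top to bottom. Circles are the edgeR values with 95% intervals, diamonds the values with each library's length trend removed, and filled markers have an adjusted p under 0.05. The filled circles are HMGCS1, IDI1, LSS, CYP51A1 and STARD4, and 12 diamonds are filled, all of them left of 0.

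The count of members called moved with the length trend and with single libraries. With each library's trend on gene length removed, 12 members fell and none rose, against 5.46% of tested genes called lower and 4.51% called higher. These 12 were the 5 above with ACAT2, MVK, FDFT1, SQLE, MSMO1, HSD17B7 and DHCR7, and 11 of the 12 encode enzymes. The median of the members then stood at -0.13. Without the trend, 17 members lay below DMSO without overlap, against 14.1% of tested genes, and 1, NPC1, lay above, against 13.5%. Without DMSO 1, DMSO 2, DMSO 3 or apigenin 1, edgeR called 1, 2, 2 and 2 members lower, against 1.01%, 1.15%, 1.16% and 1.18% of tested genes. Without apigenin 2 it called 8, against 9.97% of tested genes, and without apigenin 3 it called 9, against 5.31%.

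**Figure D2:**
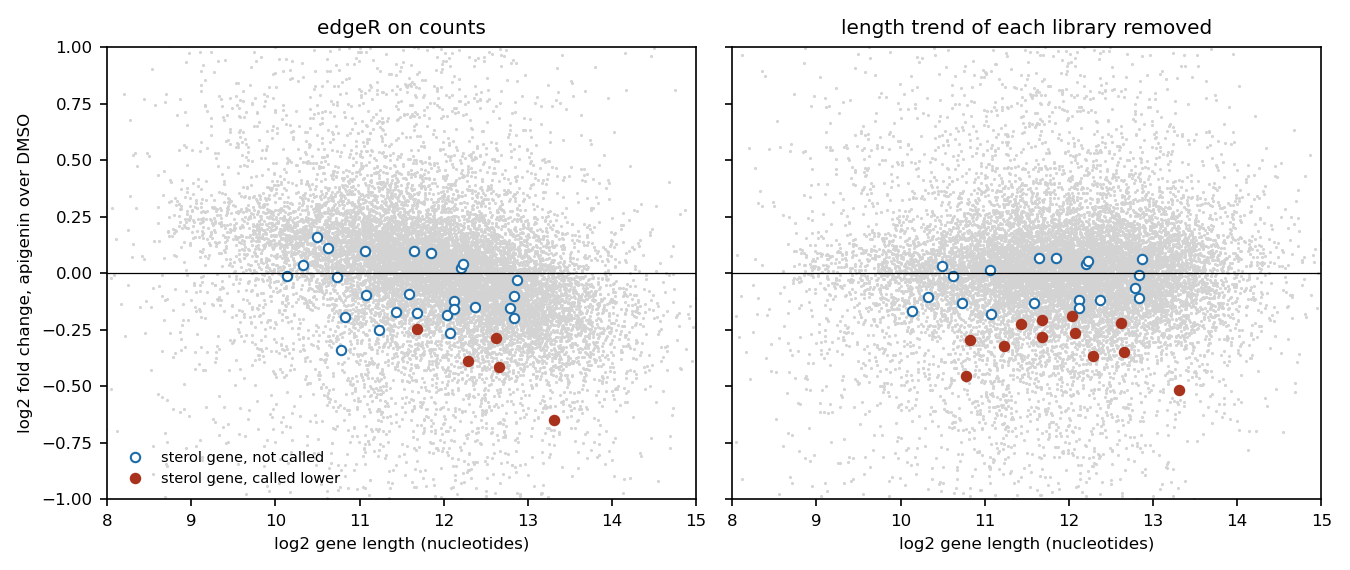
Log2 fold change (vertical axis, apigenin over DMSO) against log2 gene length in nucleotides, for the tested genes (grey) and the 31 sterol genes (circles, filled where called lower), as measured (left) and with each library's length trend removed (right). The grey cloud slopes down on the left and lies flat on the right, and the filled circles go from 5 to 12. Genes beyond the axes, 419 on the left and 421 on the right, are not drawn.

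The first enzyme with a call was HMGCS1, which encodes the cytosolic HMG-CoA synthase. It lies on chromosome 5, from 43287470 to 43313412 (GRCh38). It stood at 62.8, 64.5 and 67.3 CPM in DMSO 1, 2 and 3 and at 47.7, 50.1 and 47.8 CPM in apigenin 1, 2 and 3. The groups did not overlap, and the 3 apigenin values were close together. HMGCS1 fell by 25.1% (log2 fold change -0.42 ± 0.065 SE, 95% interval -0.56 to -0.28, adjusted p = 0.00207). It was the only member called in each of the 17 other settings, with an adjusted p of up to 0.0383. ACAT2 and MVK lay below their DMSO libraries without a call. ACAT2, which encodes the thiolase that makes acetoacetyl-CoA, stood at 38.8, 35.4 and 34.2 CPM with DMSO and 29.3, 32.2 and 33.3 CPM with apigenin (adjusted p = 0.159). It shares its locus with SOD2 and TCP1, at log2 fold changes of 0.20 and 0.16, and how much their reads bear on it was not tested. MVK, which encodes mevalonate kinase, stood at 26.5 ± 0.475 CPM with DMSO and 22.1 ± 1.57 CPM with apigenin (SD, n = 3, log2 fold change -0.27, adjusted p = 0.0761). MVK overlaps MMAB, at a log2 fold change of -0.18, and how much MMAB reads bear on MVK was not tested. The kinase and decarboxylase genes that follow, PMVK and MVD, had overlapping groups. PMVK, of 1281 nucleotides, stood at 41.9 and 42.3 CPM in apigenin 1 and 2 and at 53.2 CPM in apigenin 3, the library with the steepest slope on length. With the length trend removed the apigenin libraries of PMVK all lay below the DMSO libraries, at -0.105 (adjusted p = 0.358). MVD had a log2 fold change of -0.10, with a 95% interval of -0.35 to 0.16.

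Of the 3 genes that make and extend isoprenoids, IDI1 alone was called, against 4.22% of all tested genes called lower. It encodes the isomerase that gives the allylic unit on which chains are built, and lies on chromosome 10 from 1039152 to 1056704. IDI1 stood at 65.1, 69.5 and 74.2 CPM with DMSO and at 55.2, 54.9 and 60.7 CPM with apigenin. The highest apigenin library was below the lowest DMSO library. It fell by 18.2% (log2 fold change -0.29 ± 0.072 SE, adjusted p = 0.0297), and it was no longer called when any DMSO library or apigenin 1 was left out, nor in any of the 3 limma fits on FPKM (largest adjusted p in any setting 0.172). With the length trend removed the IDI1 groups overlapped, at a log2 fold change of -0.22 (adjusted p = 0.0457). FDPS, which encodes farnesyl diphosphate synthase, stood at 181 ± 6.24 CPM with DMSO and 179 ± 16.1 CPM with apigenin (SD, n = 3). Its 95% interval ran from -0.16 to 0.13 on the log2 scale. GGPS1 makes geranylgeranyl diphosphate, which leaves the path to sterols to anchor proteins in membranes. It had a log2 fold change of 0.02, with a 95% interval from -0.14 to 0.18. FDPS and IDI1 have processed copies elsewhere in the genome, so reads could be split between copies and their levels are uncertain. IDI1 overlaps WDR37, at a log2 fold change of -0.13, and GGPS1 overlaps ARID4B, at -0.18. How much reads of WDR37 and ARID4B bear on these members was not tested.

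All 3 genes from farnesyl diphosphate to lanosterol had their apigenin libraries below their DMSO libraries, against 15% of all tested genes. FDFT1, which encodes squalene synthase, stood at 167, 164 and 163 CPM with DMSO and 148, 136 and 150 CPM with apigenin (log2 fold change -0.19, adjusted p = 0.0671). SQLE, which encodes squalene epoxidase, a rate-controlling oxygenase, stood at 122, 122 and 125 CPM with DMSO and 107, 112 and 108 CPM with apigenin (log2 fold change -0.18, adjusted p = 0.0724). LSS, which encodes the cyclase that folds oxidosqualene into lanosterol, was called (chromosome 21, 46188446 to 46228774). It stood at 40.3, 41.9 and 38.3 CPM with DMSO and at 32.5, 32.1 and 27.3 CPM with apigenin. Apigenin 3 was the lowest, and the groups did not overlap. LSS fell by 23.7% (log2 fold change -0.39 ± 0.084 SE, adjusted p = 0.0146) and was no longer called when any DMSO library was left out, nor by limma on unfiltered FPKM (largest adjusted p in any setting 0.132). FDFT1 and SQLE passed with the length trend removed, at -0.19 (adjusted p = 0.0165) and -0.21 (adjusted p = 0.00753), and LSS stood at -0.37 (adjusted p = 0.00247).

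**Figure D3:**
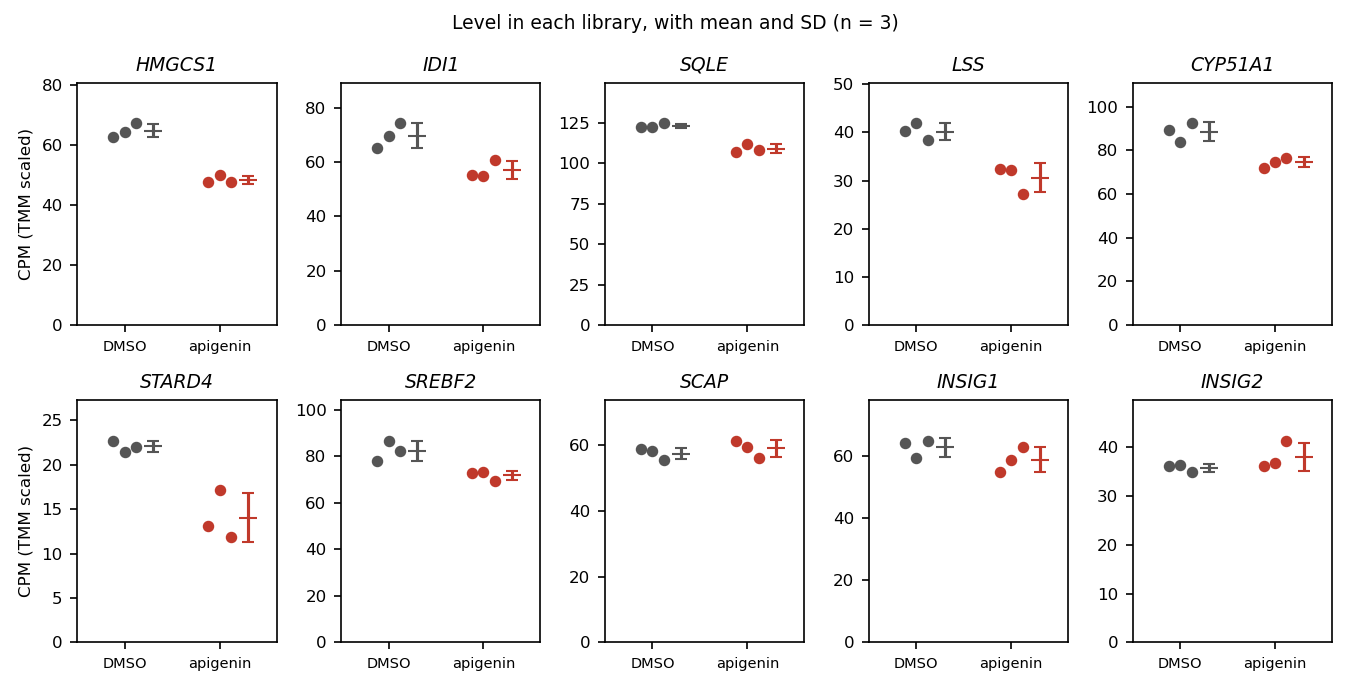
CPM (vertical axes, from 0) of 10 sterol genes in each library, with DMSO in grey and apigenin in red, and the mean with its SD (n = 3) beside each group. The apigenin points lie below all DMSO points for HMGCS1, IDI1, SQLE, LSS, CYP51A1, STARD4 and SREBF2, and the groups overlap for SCAP, INSIG1 and INSIG2.

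After lanosterol, CYP51A1 alone of 9 genes was called, against 4.22% of all tested genes called lower. It encodes the P450 enzyme that removes the C14 methyl group and is the target of azole drugs in fungi, and it lies on chromosome 7 from 92112153 to 92134803. CYP51A1 stood at 89.3, 84.0 and 92.4 CPM with DMSO and at 72.1, 74.8 and 76.7 CPM with apigenin. The groups did not overlap. It fell by 15.8% (log2 fold change -0.25 ± 0.063 SE, adjusted p = 0.0326), and was no longer called when any DMSO library or apigenin 1 was left out, nor by limma on unfiltered FPKM (largest adjusted p in any setting 0.178). The next step, C14 reduction, can be done by the products of TM7SF2 and LBR. TM7SF2 was among the lowest members, at 5.5 ± 0.894 CPM with DMSO and 5.96 ± 1.03 CPM with apigenin, and LBR, which also ties chromatin to the nuclear lamina, stood at 200 ± 7.88 and 184 ± 11.1 CPM (SD, n = 3). The groups of both overlapped. With the length trend removed those of LBR did not, with apigenin lower at -0.12 (adjusted p = 0.141). Removal of the C4 methyl groups comes next. MSMO1, which encodes the oxidase, stood at 52.3, 53.6 and 59.9 CPM with DMSO and 42.8, 45.6 and 50.8 CPM with apigenin (log2 fold change -0.25, adjusted p = 0.0752). NSDHL, which encodes the dehydrogenase that follows it, had a log2 fold change of 0.10 with a 95% interval of -0.06 to 0.26. HSD17B7, which encodes the ketoreductase of that complex, had 8.52 ± 1.09 CPM with DMSO and 6.73 ± 0.986 CPM with apigenin (SD, n = 3, log2 fold change -0.34, adjusted p = 0.176). It has pseudogenes, so its level is uncertain, as is that of CYP51A1.

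None of the genes of the last steps to cholesterol was called as measured, against 4.22% of all tested genes called lower. EBP, which encodes the sterol isomerase, stood at 79.7, 83.0 and 80.3 CPM with DMSO and at 76.3, 70.1 and 94.6 CPM with apigenin. Apigenin 3 was above every DMSO library and apigenin 1 and 2 were below them. EBP is the shortest member, at 1125 nucleotides, and with the length trend removed its apigenin libraries all lay below the DMSO libraries (log2 fold change -0.17, adjusted p = 0.0665). SC5D, which encodes the C5 desaturase, and DHCR7, which encodes the reductase of the last step, had log2 fold changes of -0.16 (adjusted p = 0.173) and -0.17 (adjusted p = 0.122). Both had groups that did not overlap. With the length trend removed DHCR7 passed, at -0.23 (adjusted p = 0.0182), and SC5D, of 7081 nucleotides, stood at -0.07.

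**Figure D4:**
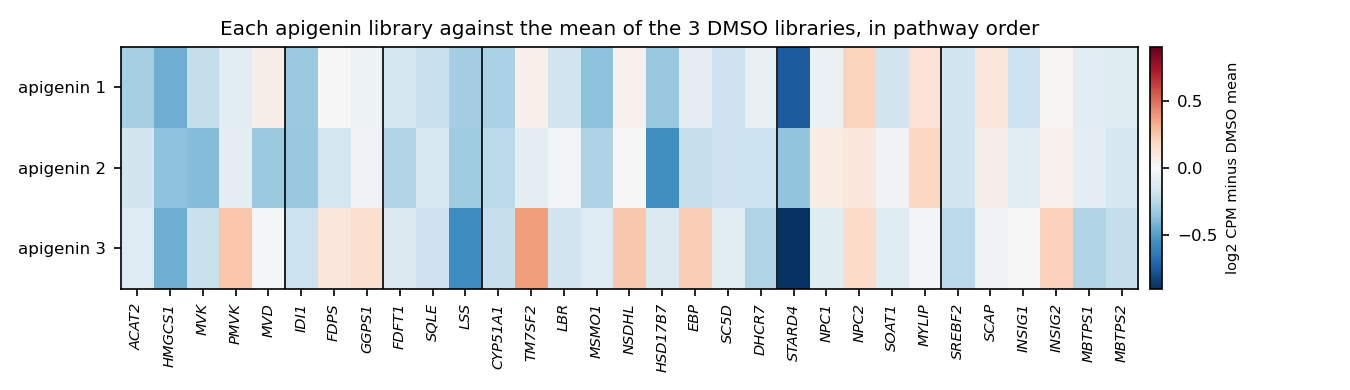
Log2 CPM of each apigenin library minus the mean of the 3 DMSO libraries (colour, blue lower and red higher) for the 31 genes in pathway order. Apigenin 1, 2 and 3 lay below the DMSO mean in 24, 25 and 22 genes. The red cells of apigenin 3 include the short genes PMVK, TM7SF2, NSDHL and EBP and the longer INSIG2 and GGPS1. The short genes ACAT2, HSD17B7 and DHCR7 lay below the DMSO mean in apigenin 3.

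Lower values of the enzymes were seen in each apigenin library. Over the 20 enzymes, apigenin 1, 2 and 3 had median differences from the DMSO mean of -0.18, -0.20 and -0.13 on the log2 scale, against 0.0031 to 0.0074 over all tested genes. All 3 apigenin libraries lay below the DMSO mean for 18 of the 31 members, against 25.9% of tested genes, and above it for 3, against 27.3%. Among members under 3000 nucleotides, edgeR called 0 of 11 lower, against 0.811% of all tested genes of that length, with 4 lower and 1 higher at an unadjusted p under 0.05. Among longer members it called 5 of 20, against 6.26%. With the length trend removed it called 4 of 11 against 3.54%, and 8 of 20 against 6.6%. Across the 31 members, which are not independent replicates, the Spearman correlation of the log2 fold change with length was -0.43, and across all tested genes -0.36.

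STARD4 had the largest change of any member. It encodes a small soluble carrier that moves cholesterol between membranes and is itself a target of SREBP2, and it lies on chromosome 5 from 111496033 to 111512535. STARD4 stood at 22.7, 21.5 and 22 CPM with DMSO and at 13.1, 17.2 and 11.9 CPM with apigenin. Apigenin 2 was the highest of its group but still below every DMSO library. It fell by 36.2% (log2 fold change -0.65 ± 0.125 SE, 95% interval -0.92 to -0.38, adjusted p = 0.00744), and leaving out DMSO 1 or apigenin 1 ended the call (adjusted p = 0.0539 and 0.0604), as did limma on log2(FPKM + 0.1) (adjusted p = 0.0518) and on unfiltered log2(FPKM + 1) (adjusted p = 0.152). It is the longest member, at 10140 nucleotides, and stood at -0.52 with the length trend removed (adjusted p = 0.00231). On the log2(FPKM + 1) scale the difference was -0.42, since STARD4 was also the lowest member per length. Its antisense gene STARD4-AS1 reached only 0.111 ± 0.05 CPM with DMSO, and the antisense gene of CYP51A1 only 0.055 ± 0.0268 CPM (SD, n = 3).

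STARD4 alone was called of the 5 uptake, transport and storage genes, against 4.22% of all tested genes called lower. NPC1 and NPC2, which pass cholesterol out of lysosomes, differed in direction. NPC1 stood at 195 ± 5.92 CPM with DMSO and 191 ± 12.3 CPM with apigenin (SD, n = 3), with overlapping groups. NPC1 overlaps RMC1, at a log2 fold change of 0.24, and how much RMC1 reads bear on NPC1 was not tested. NPC2 stood at 66.3, 70.5 and 67.0 CPM with DMSO and 78.1, 72.7 and 76.6 CPM with apigenin (log2 fold change 0.16, adjusted p = 0.141). It was the only member with every apigenin library above every DMSO library. NPC2 is short, at 1446 nucleotides, and stood at 0.03 with the length trend removed, when its groups overlapped. SOAT1, which stores cholesterol as esters, had a log2 fold change of -0.10 (adjusted p = 0.316). MYLIP encodes a ubiquitin ligase that sends lipoprotein receptors for degradation and is switched on by LXR. Its log2 fold change was 0.10, with a 95% interval of -0.16 to 0.36 at about 10 CPM.

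edgeR called none of the 6 control genes, against 4.22% of all tested genes called lower and 2.76% called higher. At an unadjusted p under 0.05, 2 were lower, SREBF2 and MBTPS1, against 12.6% of tested genes. In 3 of the 6 all apigenin libraries lay below all DMSO libraries, against 15% of tested genes. SREBF2, which encodes SREBP2, stood at 78.2, 86.8 and 82.4 CPM with DMSO and at 72.8, 73.3 and 69.5 CPM with apigenin. The groups did not overlap, and the log2 fold change was -0.20 ± 0.064 SE (adjusted p = 0.0777). DESeq2 called it, as did edgeR without apigenin 2, but with the length trend removed it stood at -0.11 (adjusted p = 0.257) and its groups overlapped. INSIG1, whose promoter is among those shown, stood at 63.9, 59.1 and 64.8 CPM with DMSO and 54.8, 58.6 and 62.8 CPM with apigenin. The groups overlapped, and its log2 fold change of -0.09 had a 95% interval of -0.25 to 0.06. INSIG2, a relative of INSIG1 that SREBP2 does not switch on, stood at 36.2, 36.3 and 34.8 CPM with DMSO and 36.0, 36.7 and 41.3 CPM with apigenin, with a 95% interval of -0.08 to 0.25 on the log2 scale. SCAP, the escort and sterol sensor, stood at 58.8, 58.1 and 55.4 CPM with DMSO and 61.4, 59.5 and 56.2 CPM with apigenin (95% interval -0.10 to 0.18). The protease genes MBTPS1 and MBTPS2 had log2 fold changes of -0.15 (adjusted p = 0.169) and -0.16 (adjusted p = 0.24), with groups that did not overlap. MBTPS2 shares its locus with YY2, at -0.35 (adjusted p = 0.266), and how much YY2 reads bear on MBTPS2 was not tested.

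Per length, the members spanned a wide range that changed little in order. FDPS was the highest at 107 ± 3.77 FPKM with DMSO and 105 ± 8.42 FPKM with apigenin, followed by EBP, NPC2 and LBR. STARD4 was the lowest, at 2.18 ± 0.0586 and 1.39 ± 0.29 FPKM (SD, n = 3). SQLE at 37.6 ± 0.298 and FDFT1 at 39.2 ± 0.521 FPKM stood well above HMGCS1 at 10 ± 0.335 and LSS at 8.01 ± 0.376 FPKM with DMSO. Neighbours such as SREBF2 at 11.3 ± 0.607 and IDI1 at 11.1 ± 0.708 FPKM with DMSO did not differ beyond their spread. HMGCS1 went from rank 20 to rank 24 of the 31, the widest move of any called member, and passed below INSIG2, MVD, GGPS1 and SC5D.

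**Figure D5:**
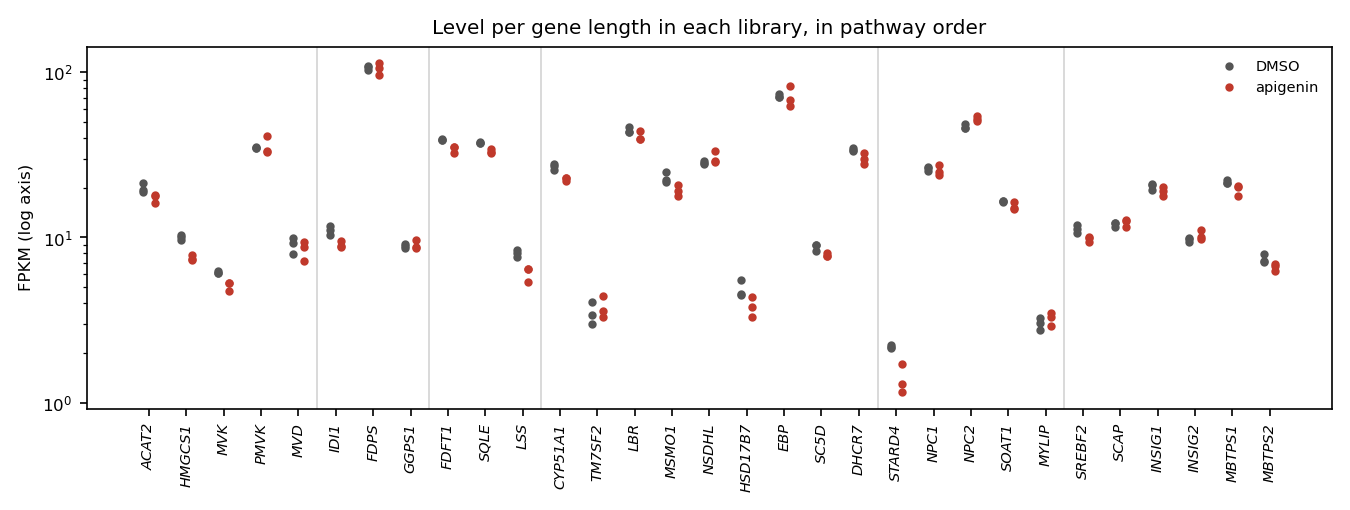
FPKM (vertical axis, log scale) of the 31 genes in pathway order in each of the 3 DMSO (grey) and 3 apigenin (red) libraries. FDPS lies highest and STARD4 lowest in both groups, and the red points lie clear below the grey ones for HMGCS1, LSS and STARD4.

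Genes around the pathway are given by list. Of 25 genes for SREBP transport, INSIG turnover and sterol-regulated degradation, which include coat proteins, ubiquitin ligases and NF-Y subunits, edgeR called none, with a median log2 fold change of 0.02. At an unadjusted p under 0.05, 2 were lower and 0 higher, against 12.6% and 11.7% of all tested genes. With the length trend removed 1 was called lower, against 5.46%. Of 11 tested further enzymes and electron donors of sterol synthesis, 2 fell and 1 rose, against 4.22% and 2.76% of all tested genes. With the length trend removed, 2 were called lower and 2 higher, against 5.46% and 4.51%. POR, which encodes the reductase that supplies electrons to CYP51A1 and SQLE, rose from 201 ± 1.39 to 235 ± 16.6 CPM (SD, n = 3, log2 fold change 0.22, adjusted p = 0.0408). POR was no longer called when any DMSO library or apigenin 1 was left out, nor in the 3 limma fits.

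Of 9 tested genes of LXR and sterol export, 3 rose and 6 were not called, against 2.76% of all tested genes called higher, with a median log2 fold change of 0.05. Others of this list lay lower: NCOA1 at -0.27 (adjusted p = 0.0611) and SMPDL3A at -0.40 (adjusted p = 0.112), which with the length trend removed was called lower at -0.46 (adjusted p = 0.0395). Both are named here after their values were seen. ABCA1, which loads cholesterol onto apolipoproteins, stood at 37.3, 35.7 and 39.0 CPM with DMSO and 47.2, 53.8 and 41.9 CPM with apigenin (log2 fold change 0.35 ± 0.089 SE, adjusted p = 0.0313). ABCG1, which passes cholesterol to HDL, stood at 12.5, 11.6 and 14 CPM with DMSO and 18.7, 16.8 and 15.8 CPM with apigenin (0.43 ± 0.111 SE, adjusted p = 0.0349). RXRA, the partner receptor of LXR and of many other nuclear receptors, rose from 159 ± 3.28 to 203 ± 2.87 CPM (SD, n = 3, log2 fold change 0.35, adjusted p = 0.00178). The groups did not overlap for any of the 3. Of the 9 genes, 3 lay higher and 1 lower without overlap, against 14.4% and 15% of all tested genes. With the length trend removed, 3 were called higher and 1 lower, against 4.51% and 5.46%. ABCA1 and ABCG1 are long, at 10408 and 11489 nucleotides, and with the length trend removed stood higher, at 0.49 and 0.59. Leaving out any DMSO library or apigenin 1 ended both calls, as did the 3 limma fits (largest adjusted p in any setting 0.247 and 0.239). The LXR genes NR1H2 and NR1H3 were not called, at 0.07 and -0.02.

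Of 23 genes of cholesterol trafficking, esters and oxysterol binding, 1 fell, none rose and 22 were not called. Of all tested genes, 4.22% were called lower and 2.76% higher. At an unadjusted p under 0.05, 5 of the 23 were lower and 3 higher, against 12.6% and 11.7%. With the length trend removed, 5 were called lower and 2 higher, against 5.46% and 4.51% of all tested genes. The gene that fell as measured was LRP1, a large lipoprotein and protease receptor, which fell from 406 ± 9.89 to 305 ± 44.5 CPM (SD, n = 3, log2 fold change -0.41, adjusted p = 0.0103). It is 14923 nucleotides long and stood at -0.23 with the length trend removed. Leaving out any DMSO library ended the call, as did limma on log2(FPKM + 0.1) or unfiltered FPKM (largest adjusted p in any setting 0.177). The SREBP1 arm, which drives fatty acid synthesis, had 6 of 15 genes lower, 1 higher and 8 not called, against 4.22% and 2.76% of all tested genes, with a median of -0.22. With the length trend removed, 9 were lower and 1 higher, against 5.46% and 4.51%. LPIN1 (log2 fold change -0.49), ACACA (-0.38), FASN (-0.28) and ACSS2 (-0.28) fell. SREBF1, named here after its values were seen, rose from 73.8 ± 3.43 to 87.3 ± 2.55 CPM (SD, n = 3, log2 fold change 0.24, adjusted p = 0.0357). These calls too ended when any DMSO library or apigenin 1 was left out or with limma on unfiltered FPKM, and that of ACSS2 also with RLE or upper-quartile factors and without apigenin 3. Whether the fatty acid genes changed more than the sterol genes was not tested.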

How the data were processed

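RNA-seq libraries of 3 DMSO and 3 apigenin samples came from TRIzol-extracted total RNA, per the labels' protocols. The submitters' processing notes name fastp, HISAT2, HTSeq and GRCh38. Tool versions, the annotation and the strand setting were not given in the sources used here, so reads of overlapping genes (14 members have one in the tables) may not be separable. The authors deposited whole-number counts per gene symbol and FPKM values. The deposited FPKM equal the count over gene length and library total for 100% of genes (relative tolerance 0.0001), which gave the lengths.

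Groups were compared with edgeR 4.0.16 (R 4.3.3) on the counts, with TMM factors, the default filter and Benjamini-Hochberg adjustment over 15173 genes. Standard errors are the log2 fold change over the root of F. Other settings used DESeq2 1.42.0, limma 3.58.1 on log2(FPKM + 1), with genes kept at 0.5 FPKM in 3 libraries or unfiltered, and on filtered log2(FPKM + 0.1), other factors and filters, the replicate number as a block, a lowess trend on length (span 0.3) as an offset, and each library left out. A pseudocount makes low genes look less changed. The edgeR and length steps were first checked on simulated counts. There edgeR recovered 10 of 50 genes changed 1.2-fold, 38 of 50 changed 1.5-fold and 47 of 50 changed 2-fold.

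The members, the 7 other lists and the rule for named genes (all members, and up to 4 called genes per list with a mean of 1 CPM or more) were chosen with earlier results of these data known. The values of 2 called genes that the rule names are not reported here. A count of 0 allows up to 0.079 to 0.0885 CPM (3 counts, counting error only). Symbols matched RefSeq for 21752 of 23059 genes.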

Additional observations from a re-analysis of the deposited data

How the results depend on the processing

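Counts of called genes moved most. Against 419 genes higher and 641 lower, DESeq2 gave 658 higher, no filter gave 865 and 1096, and removal of the length trend gave 685 higher. Limma on log2(FPKM + 1) and log2(FPKM + 0.1) gave 303 and 289 lower, and without a filter 78 higher and 60 lower. Leaving out 1 library gave 103 to 1344 higher and 157 to 1546 lower. Against 5 sterol genes lower, DESeq2 gave 9, limma on log2(FPKM + 0.1) 3, limma on log2(FPKM + 1) without a filter 1, removal of the length trend 12, and leaving out 1 library 1 to 9. All 5 were among the 9 of DESeq2 and the 12. No sterol gene was called higher in any of these settings (at an unadjusted p under 0.05, edgeR had 1 higher, NPC2).

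With the replicate number as a block, edgeR called 5 sterol genes, 455 genes higher and 776 lower, and with the length trend removed together with the block 12 sterol genes and 801 genes higher. Same-numbered libraries did not deviate together (r of -0.017, -0.019 and -0.048), so the numbers were not taken as pairs.

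Over these settings, 465 values of the 31 members kept their direction and side of the threshold, 26 gained a call, 20 lost one and 16 changed sign, the latter in 7 members that were called in no setting. With the length trend removed, without and with the block, PMVK stood at -0.105 and -0.108, TM7SF2 at -0.0144 and -0.0075, and NPC1 at 0.0622 and 0.0623. Leaving out 1 library gave ranges of -0.0852 to 0.0939 for PMVK, -0.176 to 0.0121 for MVD, -0.0785 to 0.0497 for FDPS, -0.0398 to 0.0565 for GGPS1, -0.0328 to 0.243 for TM7SF2, -0.146 to 0.0761 for EBP and -0.0842 to 0.0077 for NPC1. The causes of these differences were not tested. With 3 libraries a group, the 95% intervals of some members without a call reach the smallest called change, that of CYP51A1 at -0.25. That of MVD, for example, ran from -0.35 to 0.16. The intervals of others do not reach it, such as FDPS (-0.16 to 0.13) and SCAP (-0.10 to 0.18). A missed call does not show that a gene was unchanged.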

Other observations

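Genes of the isoprenoid branch, which leads from farnesyl diphosphate to dolichol, ubiquinone and prenylated proteins, were mostly not called. Of 15, DOLK rose and 14 were not called, against 2.76% of all tested genes called higher. The median log2 fold change was 0.08 (0.0009 with the length trend removed). With that trend removed, 2 of the 15 were called higher and 0 lower, against 4.51% and 5.46% of all tested genes. DOLK, which encodes dolichol kinase, stood at 23.3 ± 1.33 CPM with DMSO and 29.6 ± 1.56 CPM with apigenin (SD, n = 3, log2 fold change 0.35, adjusted p = 0.0273). Removing the length trend ended the call (0.26, adjusted p = 0.0548), as did leaving out any DMSO library or apigenin 1, and limma on unfiltered FPKM. Of 4 tested oxysterol and bile acid enzyme genes, CYP39A1 rose and 3 were not called, against 2.76% of all tested genes called higher. CYP39A1, which encodes an oxysterol hydroxylase, stood at 1.49 ± 0.142 CPM with DMSO and 2.85 ± 0.498 CPM with apigenin (log2 fold change 0.94, adjusted p = 0.0438). Its call was lost when any 1 library was left out and by limma on unfiltered FPKM (largest adjusted p in any setting 0.161).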
